A study of Schizosaccharomyces pombe with 12 samples.

Results

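The hexose transporters Ght1 to Ght8 of fission yeast, Schizosaccharomyces pombe, were followed at the transcript level in wild-type cells grown in YES, a rich medium, prepared either in H2O or in D2O, heavy water, whose hydrogen is deuterium. The genes were taken by symbol, ght1 to ght8, and all 8 were found among the 7015 features listed for each sample. There were 12 samples in 3 groups of 4. The control group (S0) was grown in YES with H2O to exponential phase, and the other groups were kept in YES with 100% D2O for 5 h (S5) or 24 h (S24). All samples were wild type with no selection marker. No H2O culture of matching age was analysed here, so D2O and time in culture cannot be told apart. In RNA from whole cultures, fewer cells that express a gene and less RNA per cell cannot be told apart either.

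Ght proteins belong to the major facilitator superfamily and carry sugars across the plasma membrane together with protons. S. pombe prefers glucose, and its high-affinity transporter Ght5 is the one known to be needed for growth when glucose is scarce. In this yeast the repressor Scr1 is known to hold down ght5 in plentiful glucose, downstream of the calmodulin-dependent kinase kinase Ssp1 and the AMP-activated kinase Ssp2, while TORC2 signalling and the arrestin Aly3 are known to set how much Ght5 stays at the cell surface. RefSeq describes Ght1 as a high-affinity glucose transporter and Ght5 as a high-affinity glucose and fructose transporter. It describes Ght2 and Ght6 as glucose and fructose transporters, Ght3 as a gluconate transporter, and Ght4, Ght7 and Ght8 only as hexose transporters.

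The library totals lay between 26775612 and 27166349 counts. Replicates within a group had Spearman correlations of 0.995 to 0.999 across features, which are described as independent samples without saying whether they came from separate cultures; p-values thus measure only the spread between these samples. Ribosomal RNA held 2.84% of the counts in replicate 2 at 24 h against at most 0.717% in every other sample. Control replicate 1 had the highest control value for 6 of the 8 genes. How often it was highest over all features was not counted. Among the samples flagged below as standing apart from their group, it appears for ght8 and ght2. Results that rest on this replicate are given with and without it. Values are CPM (counts scaled to a common library total after TMM normalisation), and changes are log2 fold changes from edgeR's quasi-likelihood test, with p adjusted over 6683 features by Benjamini-Hochberg and called at an adjusted p under 0.05.

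Members of the family share sequence, which bears on how their reads were told apart. Between the RefSeq (ASM294v3) coding sequences of ght5 and ght8, 92.5% of aligned bases were identical, and the longest identical run was 248 bases. The coding sequences of ght3 and ght4 were 82.6% identical with a longest run of 240 bases, and ght1 shared a run of 182 bases with ght5 and with ght8. The longest run in any other pair was 72 bases, for ght5 and ght6 and for ght6 and ght8. How the deposited counts treat reads that map to several places is not given in the sources used here. The separate values of ght5, ght8 and ght1, and of ght3 and ght4, are therefore uncertain. Sums of ght5 with ght8 and of ght3 with ght4 are given below. Strandedness is not stated either, so reads of a gene and of an overlapping antisense feature cannot be told apart. RefSeq also places non-coding RNAs over ght2, ght3, ght7 and ght8. Those RNAs are not among the listed features, so their part in the counts of these genes was not tested.

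In the comparison of 5 h in D2O with control, the family split. The transcripts of ght5, ght8 and ght1 fell, those of ght3, ght7 and ght4 rose, and ght2 and ght6 did not pass the test. Thus 6 of 8 genes were called, against 76.4% of all features, with 3 higher and 3 lower (background 39.1% and 37.3%). Of the 8 genes 4 changed at least 2-fold, against 12.3% of all features: 2 were higher (8.47%) and 2 lower (3.82%). In absolute terms the median log2 fold change was 1.14 over the 8 genes and 0.35 over all features tested.

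At 24 h against control, the falls seen at 5 h were mostly gone. Of the 8 genes, 5 were higher and 1 was lower (background 41.8% and 39.4%), so that 6 were called against 81.2% of all features. The 3 genes changed at least 2-fold, ght3, ght4 and ght7, were all higher, while 21.1% of all features changed by that much, 12.1% upwards and 9.01% downwards. The median absolute log2 fold change was 0.37 over the family and 0.47 over all features.

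Between 5 h and 24 h, 6 of 8 genes were called (68.3% of all features). All 6 rose and 0 were called lower, where 33.6% of all features were called higher and 34.6% lower. The 2 genes outside the call were ght2 and ght3. At an unadjusted p under 0.05 ght3 would count as lower, and DESeq2 gave the same 6 higher and 0 lower. Of these, 4 rose at least 2-fold; among all features 6.37% changed that much, 4.32% upwards and 2.05% downwards. The median log2 fold change was 1.03 over the family and -0.01 over all features.

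**Figure D1:**
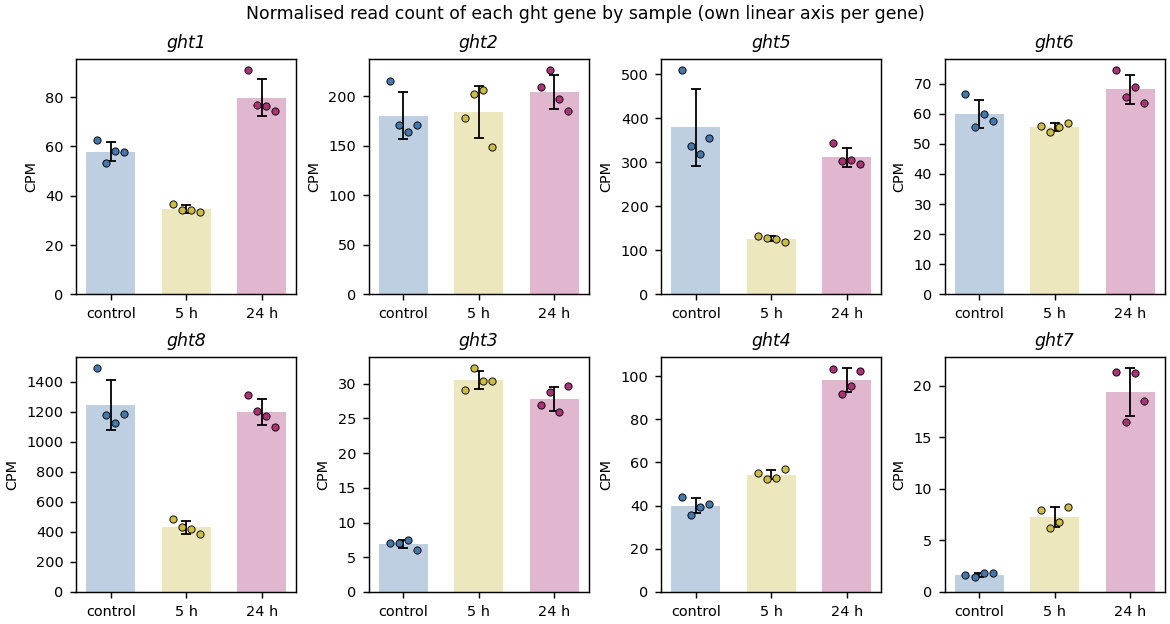
Normalised read count (CPM, linear axis from 0, a separate axis for each gene) of the 8 ght genes in the H2O control and after 5 h and 24 h in D2O. Points are the 4 samples of a group, bars their mean and error bars the SD; ght5, ght8 and ght1 are lowest at 5 h, whereas ght4 and ght7 rise from control to 5 h to 24 h.

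The high-affinity glucose and fructose transporter gene ght5 was one of the most abundant of the family in H2O. In the 4 control samples its CPM was 509, 336, 318 and 355. At 5 h it was 133, 127, 126 and 119, and at 24 h it was 344, 303, 304 and 296. All 5 h samples lay below every control and every 24 h sample, and the control and 24 h ranges overlapped. The mean went from 379 ± 87.6 to 126 ± 5.82 (SD, n = 4). On the log2 scale this was -1.59 (SE 0.12, edgeR adjusted p = 1.62e-08), or 3.01-fold lower. From 5 h to 24 h it rose by 1.31 (SE 0.12, edgeR adjusted p = 2.65e-07) to 312 ± 21.6.

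The call of ght5 as lower at 24 h than in control (log2 fold change -0.28, SE 0.12, edgeR adjusted p = 0.0361) was not stable. Without control replicate 1 the difference was -0.11 (edgeR adjusted p = 0.127), and without replicate 2, 3 or 4 at 24 h the adjusted p was 0.0641, 0.0731 or 0.0799. Across the alternatives and left-out samples the adjusted p ranged from 0.0105 to 0.422. The fall at 5 h without that replicate was -1.41 (SE 0.063, edgeR adjusted p = 3.03e-10).

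The hexose transporter gene ght8 followed the same course at a higher level. Its CPM was 1491, 1180.0, 1125 and 1186 in the controls. It was 484, 435, 417 and 383 at 5 h and 1310.2, 1206, 1170.2 and 1099 at 24 h. Again no 5 h sample reached the lowest sample of either other group, while control and 24 h samples overlapped. The log2 fold change at 5 h was -1.54 (SE 0.093, edgeR adjusted p = 1.62e-09), a 2.90-fold fall, and without control replicate 1 it was -1.44. At 24 h the mean was 1196 ± 88.1 against 1245 ± 166 in the controls (SD, n = 4). That difference was -0.06 with an approximate 95% interval from -0.24 to 0.12 (edgeR adjusted p = 0.563), and it took the opposite sign (0.13) with scaling by library size alone. Between the D2O times ght8 rose by 1.48 (SE 0.093, edgeR adjusted p = 5.28e-09).

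The ratio of the ght8 to the ght5 CPM within a sample was 3.33 ± 0.28 in H2O, 3.40 ± 0.18 after 5 h and 3.84 ± 0.11 after 24 h (SD, n = 4). It is not scaled to length, and the deposited features are 4211 bases long for ght8 and 2217 for ght5. These genes share long identical runs, so a common course may in part be common reads, and the share of such reads was not tested. Counted together as a single feature, ght5 and ght8 changed by -1.55 at 5 h (SE 0.097, edgeR adjusted p = 2.34e-09), by -0.11 at 24 h (SE 0.094, edgeR adjusted p = 0.303), and by 1.44 from 5 h to 24 h (SE 0.096, edgeR adjusted p = 1.09e-08).

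The third gene to fall at 5 h was ght1, which encodes the other high-affinity glucose transporter. The 4 control samples had CPM values of 62.5, 53.2, 58.0 and 57.7. The values were 36.8, 34.2, 34.0 and 33.3 at 5 h and 90.9, 76.9, 76.4 and 74.5 at 24 h. None of the 3 groups overlapped: every 5 h sample was below the controls, and every 24 h sample was above them. The log2 fold change was -0.74 at 5 h (SE 0.066, edgeR adjusted p = 1.05e-07) and 0.46 at 24 h (SE 0.064, edgeR adjusted p = 8.54e-06). Between the D2O times ght1 rose by 1.20 (SE 0.065, edgeR adjusted p = 1.13e-09). Unlike ght5 and ght8, ght1 thus ended above control. Within a sample, the ratio of the ght1 to the ght8 CPM, not scaled to length, was 0.0468 ± 0.0042 (SD, n = 4) in H2O. It was 0.0808 ± 0.0047 after 5 h and 0.0666 ± 0.0025 after 24 h. How many ght1 reads came from the run shared with ght5 and ght8 was not tested. The ght1 feature overlaps a non-coding RNA, SPNCRNA.1121. The mean CPM of that RNA, not scaled to length, was 8.09, 7.66 and 11.6 in the 3 groups, below that of ght1 throughout.

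The glucose and fructose transporter gene ght2 changed little. Its control CPM values were 216, 171, 164 and 171. They were 179, 203, 207 and 149 at 5 h and 209, 226, 197 and 186 at 24 h. The 3 groups overlapped. The approximate 95% interval of the log2 fold change spanned -0.18 to 0.24 at 5 h (edgeR adjusted p = 0.797) and -0.02 to 0.39 at 24 h (edgeR adjusted p = 0.124). Control replicate 1 decided the call at 24 h, since without it ght2 was higher by 0.28 (edgeR adjusted p = 0.019).

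Like ght2, the gene ght6 is described as a glucose and fructose transporter, as is ght5, and ght6 also moved little. The 4 controls had CPM values of 66.4, 55.6, 59.9 and 57.6. Those at 5 h were 55.8, 53.8, 55.5 and 57.0, and those at 24 h were 74.4, 65.6, 68.8 and 63.6. The 5 h and 24 h samples did not overlap, whereas the controls overlapped both. The log2 fold change was -0.11 at 5 h (SE 0.058, edgeR adjusted p = 0.0996), which turned to 0.09 under library-size scaling and passed the test without control replicate 2 (-0.14, edgeR adjusted p = 0.0428). It was 0.19 at 24 h (SE 0.057, edgeR adjusted p = 0.00803) and 0.29 between the times (SE 0.057, edgeR adjusted p = 0.000392). The overlapping feature ght6-antisense-1 had nearly the same counts, with a mean of 1508 against 1478 for ght6 in the controls. The values of ght6 therefore cannot be assigned to either strand of the locus.

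**Figure D2:**
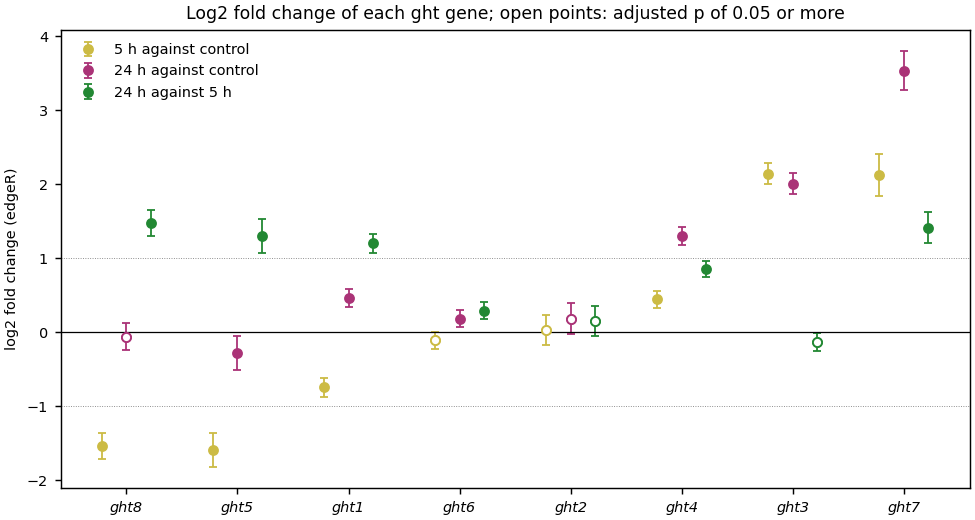
Log2 fold change (edgeR) of each ght gene for 5 h against control, 24 h against control and 24 h against 5 h, with approximate 95% intervals; open points did not pass an adjusted p of 0.05 and dotted lines mark a 2-fold change. The 5 h points of ght8, ght5 and ght1 lie below 0 and those of ght4, ght3 and ght7 above it, and ght7 reaches 3.53 at 24 h.

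Among the genes that rose, ght3 encodes the transporter of gluconate, an oxidised form of glucose. Its CPM was 7.04, 7.03, 7.49 and 6.07 in the controls. It was 29.1, 32.3, 30.4 and 30.4 at 5 h and 26.9, 28.7, 25.9 and 29.6 at 24 h. Every D2O sample was above every control, and the D2O groups overlapped. The rise was 2.15 on the log2 scale at 5 h (SE 0.073, edgeR adjusted p = 2.80e-12), 4.42-fold, and 2.01 at 24 h (SE 0.073, edgeR adjusted p = 2.96e-12). The difference between the times was -0.14 with an approximate 95% interval from -0.26 to -0.01 (edgeR adjusted p = 0.0675). Its adjusted p was 0.0396 without replicate 4 at 24 h, 0.0479 without control replicate 4 and up to 0.191 in other settings.

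The hexose transporter gene ght7 had the lowest level of the family in H2O and the highest fold change at 24 h against control. It had 40, 36, 43 and 46 counts in the controls, above the floor of 3 counts set by depth. There were 224, 177, 193 and 234 counts at 5 h and 585, 452, 608 and 532 at 24 h. The 3 groups were fully apart and in that order. In CPM the mean went from 1.67 ± 0.188 to 7.29 ± 0.948 and 19.4 ± 2.34 (SD, n = 4). The log2 fold change was 2.12 at 5 h (SE 0.15, edgeR adjusted p = 6.78e-09) and 3.53 at 24 h (SE 0.14, edgeR adjusted p = 5.50e-12), the latter 11.6-fold. Between the times it was 1.41 (SE 0.11, edgeR adjusted p = 4.44e-08).

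The hexose transporter gene ght4 rose less at 5 h and then further. Its CPM was 44.0, 35.6, 39.4 and 40.5 in the controls. It was 55.1, 52.6, 52.7 and 56.9 at 5 h and 104, 91.6, 95.4 and 102 at 24 h. No samples overlapped between the groups. The log2 fold change was 0.45 at 5 h (SE 0.060, edgeR adjusted p = 8.64e-06), 1.30 at 24 h (SE 0.059, edgeR adjusted p = 3.60e-11) and 0.85 between the times (SE 0.058, edgeR adjusted p = 1.22e-08).

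The reads of ght4 cannot be fully separated from those of its surroundings. In RefSeq its gene overlaps the non-coding RNA SPNCRNA.1318 by 871 bases, and that RNA also overlaps 1110 bases of mal1, the maltase gene next to ght4. SPNCRNA.1318 had a mean CPM of 37.4 in H2O, 71.0 after 5 h and 225 after 24 h, and mal1 had 74.9, 132 and 376. These values are not scaled to length, and the SPNCRNA.1318 feature is 2122 bases long against 3820 for ght4. Also overlapping ght4 are SPNCRNA.1319, with a mean CPM of 16.8, 28.7 and 43.0 in the 3 groups, and SPNCRNA.298, with 6.71, 5.31 and 8.60. On the log2 scale SPNCRNA.1319 changed by 0.78 at 5 h and 1.36 at 24 h, and SPNCRNA.298 by -0.34 and 0.36. How many ght4 reads came from these overlaps was not tested. Summed with ght3, its closest relative in sequence, ght4 changed by 0.86 at 5 h (SE 0.049, edgeR adjusted p = 9.35e-10) and by 1.43 at 24 h (SE 0.049, edgeR adjusted p = 1.71e-12). The ratio of the ght4 to the ght3 CPM within a sample, not scaled to length, was 5.81 ± 0.78 in H2O (SD, n = 4). It moved to 1.78 ± 0.12 after 5 h and 3.54 ± 0.29 after 24 h, so the members of this pair did not keep a fixed proportion.

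Levels of the 8 genes were put in order only per kilobase. With the deposited feature lengths, the control level was 296 ± 39.4 CPM per kilobase for ght8, 171 ± 39.5 for ght5 and 80.3 ± 10.6 for ght2 (SD, n = 4). Next came ght6 at 29.8 ± 2.33, ght1 at 19.3 ± 1.26 and ght4 at 10.4 ± 0.911. The lowest were ght3 at 3.39 ± 0.294 and ght7 at 0.947 ± 0.106. No neighbours in this order overlapped in their ranges. The values depend on the length used: the deposited ght8 feature is 4211 bases long, while its RefSeq coding sequence is 1644 bases. Per kilobase of coding sequence ght8 was at 758 ± 101.0 and ght5 at 231 ± 53.4. The order of all 8 genes in the controls was the same, but the ranges of ght6 and ght1 overlapped.

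At 5 h the upper end of the order closed up. The level per kilobase of deposited length was 102 ± 9.97 for ght8 and 82.1 ± 11.8 for ght2, with overlapping ranges, and 56.9 ± 2.62 for ght5 (SD, n = 4). Farther down ght3 (15.0 ± 0.641) and ght4 (14.2 ± 0.537) overlapped and lay above ght1 (11.5 ± 0.506). Per kilobase of coding sequence, ght8 and ght2 did not overlap at 5 h and ght3 was below ght1. At 24 h the order of the controls was back, with ght8 at 284 ± 20.9, ght5 at 140.7 ± 9.73 and ght2 at 91.2 ± 7.80. Only ght1 (26.5 ± 2.50) and ght4 (25.7 ± 1.48) overlapped among neighbours by deposited length, whereas by coding length ght4 stood above ght1 and ght6. The lowest gene in every group was ght7, which at 24 h reached 10.99 ± 1.33 against 13.6 ± 0.828 for ght3.

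The summed level of the 8 genes was 611 ± 93.2 CPM per kilobase in H2O, 313 ± 19.5 after 5 h and 627 ± 39.5 after 24 h (SD, n = 4). The sum at 5 h was thus 0.513 times that of the controls. The fall in the sum was carried by the most abundant genes. Together ght5 and ght8 made up 76.3% ± 1.20 of it in H2O, 50.7% ± 1.95 after 5 h and 67.8% ± 0.637 after 24 h. The share of ght2 was 13.2% ± 0.270 in the controls and 26.1% ± 2.71 at 5 h, while its own level did not pass the test. The genes that rose stayed a small part: ght3, ght4 and ght7 held 4.79%, 4.56% and 1.33% at 5 h and 2.18%, 4.11% and 1.75% at 24 h. With coding lengths the share of ght5 and ght8 was 82.1%, 59.9% and 75.0% in the same groups. These sums are descriptions and were not tested.

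**Figure D3:**
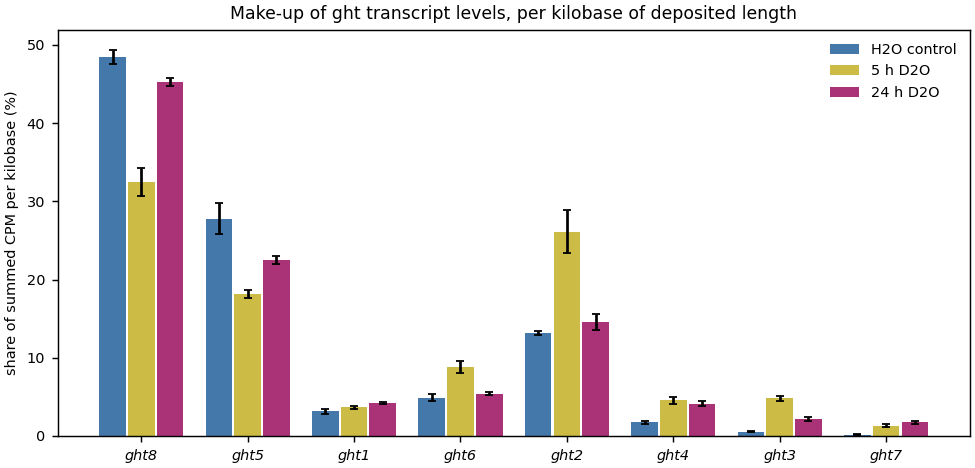
Share of each gene in the summed level of the 8 ght genes (percent of CPM per kilobase of deposited length), as mean and SD of 4 samples, in the H2O control and after 5 h and 24 h in D2O. The share of ght8 falls from 48.5% to 32.5% at 5 h while that of ght2 goes from 13.2% to 26.1%.

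A group of 4 family members lies close together. In the RefSeq gene order ght6, ght5, ght8 and ght1 stand within 10 consecutive protein-coding genes of chromosome III, with ght8 and ght1 side by side. None of the 6 genes between them was called lower at 5 h, where 37.3% of all features were. Immediately beside ght5, SPCC1235.18 was higher by 0.93 (SE 0.097, edgeR adjusted p = 5.51e-07) and the diacylglycerol acyltransferase gene dga1 by 0.86 (SE 0.038, edgeR adjusted p = 4.66e-11). Next to ght8 the ubiquitin ligase gene dbl5 was at 0.09 (SE 0.042, edgeR adjusted p = 0.0722). The mean CPM of dbl5 was 72.4, 76.9 and 78.0 in the 3 groups. That of urm1, the gene before it, was nearly the same (70.9, 76.0 and 77.0). Whether dbl5 and urm1 share reads was not tested. On the far side of ght1, however, the transporter gene SPCC1529.01 fell by 1.16 at 5 h (SE 0.053, edgeR adjusted p = 6.81e-11) and was still lower at 24 h (log2 fold change -0.99, SE 0.052, edgeR adjusted p = 1.64e-10).

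**Figure D4:**
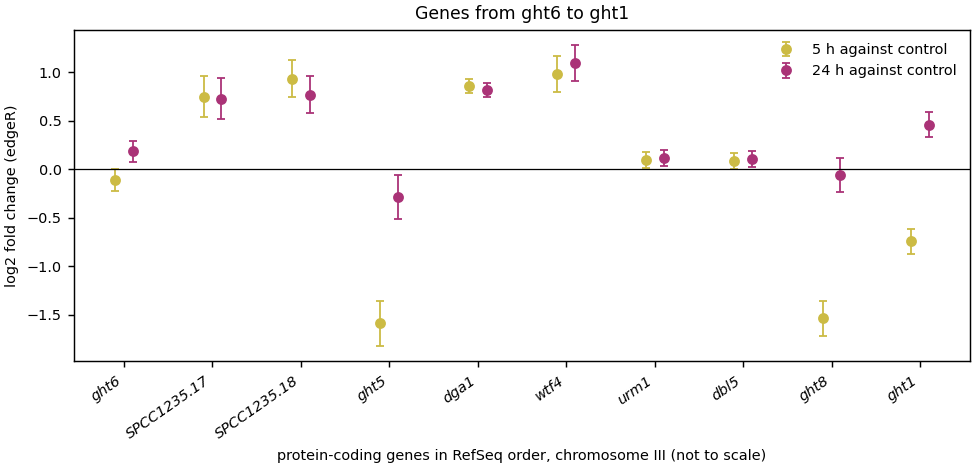
Log2 fold change (edgeR, with approximate 95% intervals) at 5 h and 24 h against control for the 10 protein-coding genes from ght6 to ght1, in RefSeq order on chromosome III (not to scale). At 5 h ght5, ght8 and ght1 lie well below 0, and the genes between them lie at or above 0.

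The genes that rose lie elsewhere. At 5 h all their neighbours were called higher, where 39.1% of all features were. At 24 h all but frp1 were called higher, where 41.8% of all features were. On one side of ght3 lies shu1, which encodes a heme uptake protein; its log2 fold change was 7.23 at 5 h (SE 0.16, edgeR adjusted p = 4.38e-14) and 2.26 at 24 h (SE 0.22, edgeR adjusted p = 1.91e-07), against 2.15 and 2.01 for ght3. On the other side SPAPJ695.01c rose at both times, by 3.32 (SE 0.27, edgeR adjusted p = 3.64e-08) and 4.04 (SE 0.25, edgeR adjusted p = 8.90e-10). Beside ght4, mal1 rose at both times, by 0.82 and 2.33, while frp1, the ferric reductase gene on its other side, rose by 1.34 at 5 h and fell by 2.30 at 24 h. Both neighbours of ght7 rose with it: SPBC1348.12, described as a transcription factor, by 1.73 and 2.32, and SPBPB8B6.02c, described as a urea transporter, by 1.45 and 3.34. The neighbours of ght2 are usp102 and usp105, for proteins of the U1 splicing particle, and both fell by 0.33 to 0.48 at both times.

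For each gene with a called change of at least 2-fold, the protein-coding genes outside the family with the most similar course were found by the root mean square difference of log2 CPM over the 12 samples, each gene centred on its own mean. They share libraries and scaling, and the measure carries no test. The 2 nearest genes were the same for ght5 and ght8: SPAC2H10.01, described as a transcription factor, at 0.10 from both, and SPBC36.02c, described as a spermidine family transporter, at 0.12 from both. For comparison, ght5 and ght8 were 0.12 apart, and ght1 was 0.34 from ght8. The mean CPM of SPAC2H10.01 was 335, 111 and 292 in the 3 groups, and it too was highest among the controls in replicate 1 (409). The measure was taken over all 12 samples, control replicate 1 included, so this likeness is part of the selection.

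The nearest to ght3 was plr1, which encodes pyridoxal reductase of vitamin B6 metabolism, at 0.08, with a mean CPM of 143, 651 and 604, followed by the F-box gene pof14 at 0.11. For ght4 the nearest were tax4 (0.07), an ENTH/VHS domain protein, and the calcium permease gene sst1 (0.09). For ght1 they were SPAC30D11.11 (0.10), of the hemolysin-III family, and SPBC530.11c (0.12), described as a transcription factor. For ght7 they were SPBC725.03, described as a pyridoxamine 5'-phosphate oxidase, and SPCPB1C11.02, described as an amino-acid permease, at 0.20 and 0.21. These distances were larger than for the other genes, but ght7 had only 36 to 46 counts per control. How much of the distance is counting error was not tested.

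Other genes of sugar uptake and the first steps of sugar use were read from a list of 12, all of them tested. At 5 h 5 were higher and 5 lower, where 39.1% and 37.3% of all features were, and their median log2 fold change was 0.10 against 0.01 over all features. Under library-size scaling 6 were higher and 3 lower at 5 h. The largest rises were in gal10, the epimerase gene of galactose use (2.25, SE 0.060, edgeR adjusted p = 2.48e-13), and in gal7 of the same pathway (1.34, SE 0.085, edgeR adjusted p = 2.71e-09). The largest falls were in the hexokinase gene hxk2, whose product phosphorylates the incoming sugar (-0.61, SE 0.053, edgeR adjusted p = 7.20e-08), and in the inositol transporter gene itr2 (-0.54, SE 0.059, edgeR adjusted p = 9.48e-07). At 24 h 9 were higher and 1, hxk2, was lower (-0.50, SE 0.053, edgeR adjusted p = 5.02e-07), where 41.8% and 39.4% of all features were. The median log2 fold change was then 0.53 against 0.01 over all features. The largest rises were in gal10 (3.11) and mal1 (2.33). Between the times 8 rose, led by mal1 (1.51) and gal10 (0.86), and 0 were called lower by edgeR, where 33.6% and 34.6% of all features were; 0 were lower by DESeq2 or at an unadjusted edgeR p under 0.05 as well.

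Of 20 genes for glucose sensing and repression, 11 were higher and 3 lower at 5 h (39.1% and 37.3% of all features), and 13 were higher and 5 lower at 24 h (41.8% and 39.4%). Their median log2 fold change was 0.19 and 0.28, against 0.01 over all features at both times. Under library-size scaling 15 were higher and 3 lower at each time. The medians were then 0.39 and 0.47, against 0.21 and 0.20 over all features. At 5 h the largest rises were in cgs1 and pka1, for the regulatory and catalytic subunits of protein kinase A (0.95 and 0.79). The largest falls were in gpa2, the G protein alpha subunit that relays glucose (-0.68, SE 0.060, edgeR adjusted p = 1.05e-07), and in git3, the glucose receptor (-0.52, SE 0.068, edgeR adjusted p = 6.84e-06). At 24 h pka1 and git5, the G protein beta subunit, were highest, both at 1.37. The lowest were the chaperone gene hsp90 (-0.97), listed under its synonym git10, and the corepressor gene tup11 (-0.56).

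The repressor gene scr1 had a mean CPM of 89.2 ± 21.9 in H2O, 93.5 ± 9.18 after 5 h and 163 ± 24.9 after 24 h (SD, n = 4). Its change was 0.07 at 5 h (edgeR adjusted p = 0.682) and 0.87 at 24 h (SE 0.14, edgeR adjusted p = 5.51e-05). Between the times scr1 rose by 0.80 (SE 0.14, edgeR adjusted p = 0.000195). From 5 h to 24 h the list had 12 higher and 4 lower genes (33.6% and 34.6% of all features). The largest rises were in scr1 and git5 (0.68), and the largest falls in hsp90 (-1.18) and git7 (-0.30).

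Of 14 genes for transporter trafficking (TORC2, arrestins and ubiquitin ligases), 4 were higher and 3 lower at 5 h (39.1% and 37.3% of all features), which became 10 and 1 under library-size scaling. At 24 h 9 were higher and 3 lower (41.8% and 39.4%). The TORC2 kinase gene tor1 rose at both times, by 0.63 and 0.94, as did gad8, the kinase it activates, by 0.51 and 1.17. At 5 h the largest falls were in pop3, the shared TOR complex subunit also called wat1 (-0.42), and in the arrestin gene any2 (-0.22, but -0.02 and not called under library-size scaling). The arrestin gene any1 was the lowest of the list at 24 h (-0.56, SE 0.040, edgeR adjusted p = 6.40e-09), followed by any2 (-0.33).

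Between 5 h and 24 h, 10 of the trafficking genes rose and 3 fell, where 33.6% and 34.6% of all features did. The largest rise was in SPCC584.15c, the gene of the arrestin Aly3 (0.85, SE 0.045, edgeR adjusted p = 9.48e-10), which had a mean CPM of 121 in H2O and after 5 h, and of 218 after 24 h. It was followed by the TORC2 subunit gene ste20 (0.78). The falls were led by any1 (-0.64) and tsc2 (-0.17), which encodes a negative regulator of TORC1.

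**Figure D5:**
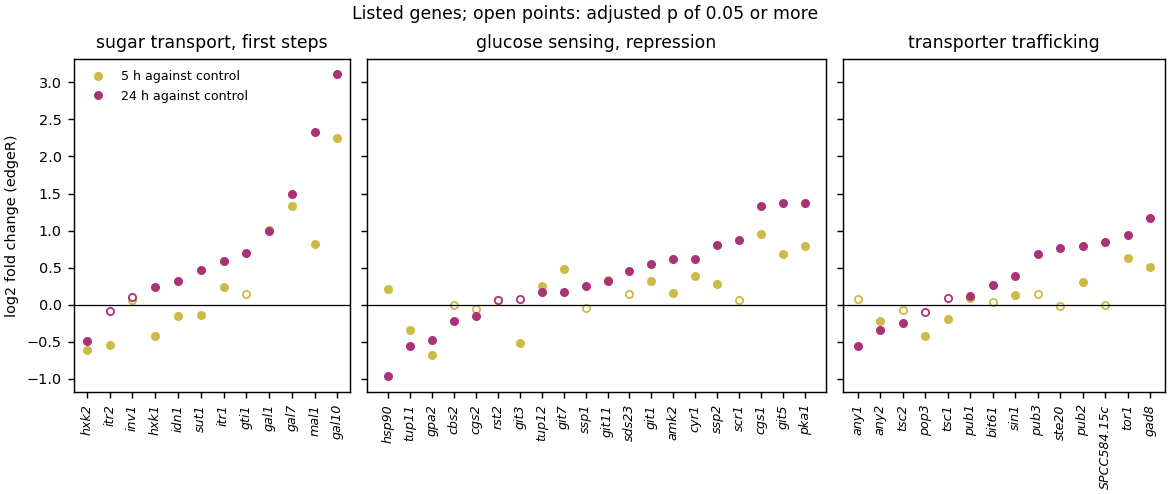
Log2 fold change (edgeR) at 5 h and 24 h against control for the listed genes of sugar transport and first steps, glucose sensing and repression, and transporter trafficking, ordered within each list by the 24 h value. Open points did not pass an adjusted p of 0.05; the highest points are gal10 (2.25 at 5 h, 3.11 at 24 h) and the lowest is hsp90 at 24 h (-0.97).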

How the data were processed

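RNA sequencing libraries of total RNA from 12 samples were read from deposited tables. Per the file headers, each table lists, per feature, the length, the count of reads and the RPKM. Per the submitters' processing notes, reads were handled with BWA 0.7.12; the counting program, genome build, annotation and strandedness are not given in the sources used here. The deposited RPKM equals count over length and column total (largest relative difference 4.96e-06), and the deposited counts were tested. The deposited feature lengths served for levels per kilobase.

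Counts were filtered with filterByExpr (minimum count 10), which left 6683 features, scaled by TMM and fitted with edgeR 4.0.16 (limma 3.58.1, R 4.3.3; quasi-likelihood F test) in 1 model of the 3 groups, with Benjamini-Hochberg adjustment over all features. SE is the absolute log2 fold change over the square root of F. A count of 3 was the floor, 0.104 to 0.126 CPM; it covers counting error only. The procedure was tested on simulated data. Gene names, gene order and coding sequences came from RefSeq ASM294v3, to which 6845 features matched by identifier; no coordinates are given, since the files name no build. Identity was computed on coding bases, and promoter motifs and protein alignments, planned at first, were not used here.

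The genes and lists were chosen with earlier results of these data known. Named list genes were the 2 largest rises and 2 largest falls among called genes per list and comparison. For only some of them are values in the other comparisons shown as well. Genes alike in course were sought among protein-coding features whose average log2 CPM (prior count 2) reached 3. Genes next to a transporter were named by position. Alternatives were other scalings, other count filters, DESeq2 1.42.0, a replicate block, fewer groups or features, and leaving out each sample. Coding lengths and summed gene pairs were added after seeing the data.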

Additional observations from a re-analysis of the deposited data

Results flagged for a closer look

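The effects at 5 h and at 24 h, both measured against the same 4 controls, differed for 6 of the 8 transporter genes, where they differed for 68.3% of all features. This is the comparison of 24 h with 5 h already given, not a further result. The log2 fold change at 24 h minus that at 5 h was 1.48 for ght8, 1.41 for ght7, 1.31 for ght5, 1.20 for ght1, 0.85 for ght4 and 0.29 for ght6.

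Single samples stood apart from the other 3 of their group in 8 of 90 gene and group combinations examined; chance gives about 1 in 20. For ght8 control replicate 1 had 1491 CPM against 1125 to 1186 in the other controls, and for ght2 it had 216 against 164 to 171. For ght1, replicate 1 at 24 h had 90.9 CPM against 74.5 to 76.9. For tup11, replicate 1 at 5 h had 99.7 CPM against 87.6 to 89.2, and for git3 replicate 3 at 5 h had 139 against 124 to 127. Among the controls, any2 had 121 CPM in replicate 3 against 129.8 to 130.6, cgs1 had 70.9 in replicate 4 against 77.7 to 78.4, and SPCC584.15c had 131 in replicate 3 against 117 to 119.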

How the results depend on the processing

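The counts of changed features stayed within 1.5 times the reported ones under every alternative run. With the replicate number as a block they were 5199, 5490 and 4678 for 5 h against control, 24 h against control and 24 h against 5 h, against 5108, 5429 and 4563 without it. Same-numbered samples had correlations of deviations from -0.183 to 0.585, not all above 0.1, so the numbers were not taken to pair samples. Leaving out 1 sample gave 4954 to 5127, 5270 to 5493 and 4329 to 4617. Scaling by library size moved the median of all features by about 0.2 (0.21 at 5 h against 0.01), giving 3589 higher and 1555 lower features at 5 h and 3521 and 1940 at 24 h, against 2616 and 2492, and 2793 and 2636.

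For the 8 transporter genes 490 alternative values stayed on their side of the threshold, 8 passed it newly and 6 lost it. No called value changed sign; uncalled values that did include ght6 at 5 h (0.09) and ght8 at 24 h (0.13) under library-size scaling, and ght2 at 5 h (-0.01) and ght8 at 24 h (0.04) without control replicate 3 and 1. All 6 losses were of ght5 at 24 h against control: -0.10 (library size), -0.29 (only the groups compared), -0.11 (without control replicate 1) and -0.27, -0.27 and -0.26 (without 24 h replicate 2, 3 or 4). New calls were ght2 under library-size scaling (0.23 at 5 h, 0.37 at 24 h) and without control replicate 1 at 24 h (0.28), ght6 at 5 h with the replicate block (-0.11) or without control replicate 2 (-0.14), and ght3 between the times (-0.14 with protein-coding features only, -0.14 without control replicate 4, -0.17 without 24 h replicate 4). Among listed genes any2 lost its call at 5 h under library-size scaling (-0.02). The cause was not tested. Depth limits ght7 most, at 36 to 46 counts per control.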
